A study of Mus musculus with 15 samples.

Results

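The follicular helper T cell genes examined here are 10 of the 55421 genes in the count files: Cxcr5, Bcl6, Pdcd1, Icos, Cd200, Sh2d1a, Il21, Tox2, Ascl2 and Il6ra. They were chosen by symbol, in a list drawn up with the KO against WT and mLN against spleen differences of these same libraries in view, and which of these values led to each gene is not recorded. Fold changes and adjusted p-values of the members are therefore given as a description and not as independent evidence.

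RNA was sequenced from CD4+ T cells recovered 6 weeks after naive T cells had been transferred into Rag2-/- mice, which make no T or B cells of their own; in this model the transferred cells drive colitis. Donors were C57BL/6 and carried floxed alleles of Prkaa1, which encodes the AMPKα1 catalytic subunit of the energy sensor AMPK. WT donors had the genotype PRKAA1fl/fl, and KO donors had CD4-Cre PRKAA1fl/fl, so that the gene was deleted in cells that had expressed Cre from Cd4 regulatory sequences, a step that occurs in the thymus. The floxed alleles, the strain and the transfer were shared by all groups, and donors and recipients were young adults per the methods of the study. There were 4 WT spleen, 4 KO spleen, 3 WT mesenteric lymph node (mLN) and 4 KO mLN samples, and the WT mLN numbers are 1, 2 and 4. One WT mLN sample was left out by the study on quality grounds. The study describes the samples as coming from 4 mice per group in a single experiment, so p-values measure the spread between mice of that experiment. The labels do not say whether a replicate number marks the same mouse in both organs. The main fits between organs and for the interaction did not use that number, so they treated spleen and mLN samples as independent.

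Between 9363940 and 11283439 reads per library fell on genes, and values below are read counts scaled to 1000000 such reads per library (CPM). Prkaa1, the targeted gene, stood at 46.3 to 54.1 CPM in WT and 18.4 to 21.7 CPM in KO spleen cells, and at 49.0 to 60.9 CPM in WT and 21.4 to 32.2 CPM in KO mLN cells, with no overlap in either organ. Reads over the part left in place by the deletion were not separated. T cell markers were abundant in all 15 libraries, with Cd4 at 996 to 1299 CPM. The B cell marker Ms4a1 had 0 reads in all 7 mLN libraries, which allows at most 3 counts in each, and at most 4 reads in any spleen library. Other B cell markers had reads. The summed level of the 7 listed was 175 to 555 CPM in WT and 208 to 310 CPM in KO mLN libraries. In spleen it was 52.0 to 193 CPM in WT and 52.3 to 147 CPM in KO libraries.

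Follicular helper T cells are the CD4+ T cells that help B cells in germinal centres. BCL6 is the transcription factor that defines them and represses competing fates. CXCR5 is the receptor for CXCL13 and guides the cells into B cell follicles, ICOS and the SLAM adaptor SAP, encoded by Sh2d1a, sustain contact with B cells, and IL-21 is the cytokine they deliver. PD-1 (Pdcd1), ICOS and CD200 are also carried by other activated T cells. IL-6 signals through the receptor encoded by Il6ra and can induce Bcl6 through STAT3, whereas IL-2 acting through STAT5 opposes it.

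Upstream sequences are shown for Bcl6, the lineage factor, which has distinct start sites, for Il21, the cytokine of the programme, and for Cd200, which was called higher in KO mLN cells. They are the 250 bases before each RefSeq start site (GRCm38.p6), all on the minus strand and written 5′ to 3′. Bcl6 has windows at chr16:23988853-23989102 and chr16:23981284-23981533, Il21 at chr3:37232637-37232886 and Cd200 at chr16:45409054-45409303. Capitals mark matches, on either strand, to TTCNNNGAA, the core bound by STAT factors and BCL6, or to GGAAA, the NFAT core, and matches to the pair can overlap.
Bcl6, upstream start: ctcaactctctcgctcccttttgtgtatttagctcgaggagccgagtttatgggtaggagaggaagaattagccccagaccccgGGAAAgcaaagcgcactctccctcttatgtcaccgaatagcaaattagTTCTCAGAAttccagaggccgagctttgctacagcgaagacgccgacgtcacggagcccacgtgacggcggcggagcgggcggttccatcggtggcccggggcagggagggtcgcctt
Bcl6, downstream start: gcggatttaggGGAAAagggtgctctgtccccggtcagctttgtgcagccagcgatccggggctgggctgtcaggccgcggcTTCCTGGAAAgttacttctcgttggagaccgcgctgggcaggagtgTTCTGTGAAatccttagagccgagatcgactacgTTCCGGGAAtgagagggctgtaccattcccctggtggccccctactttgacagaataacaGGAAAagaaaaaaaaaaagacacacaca
Il21: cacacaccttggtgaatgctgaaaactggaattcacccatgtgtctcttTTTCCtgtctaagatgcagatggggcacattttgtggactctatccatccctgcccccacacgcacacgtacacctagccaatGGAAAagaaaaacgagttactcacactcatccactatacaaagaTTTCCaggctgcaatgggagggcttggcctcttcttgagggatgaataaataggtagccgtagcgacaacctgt
Cd200: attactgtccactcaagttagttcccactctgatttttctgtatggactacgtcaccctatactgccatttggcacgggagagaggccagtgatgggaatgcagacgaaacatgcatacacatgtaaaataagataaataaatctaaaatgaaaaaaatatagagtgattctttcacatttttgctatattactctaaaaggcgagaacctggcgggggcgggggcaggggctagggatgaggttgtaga
The window at the upstream Bcl6 start held 1 TTCNNNGAA and 1 GGAAA, and the window at the downstream start held 3 of each. The Il21 window held 3 GGAAA and no TTCNNNGAA, and the Cd200 window held neither. Neither the AP-1 motif TGANTCA nor the E-box CAGCTG was present in any of these 4 windows. Of all 32851 windows of this length, TTCNNNGAA was found in 7.02%, GGAAA in 55.6%, TGANTCA in 6.75% and CAGCTG in 13.0%. RefSeq windows were matched for 7 of 10 members, and Cxcr5, Icos and Sh2d1a were not matched.

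Comparing genes requires a level per length, and CPM per kilobase of exon is used for this. In WT spleen cells Icos was the highest member at 109 ± 20.7 CPM per kilobase (SD, n = 4), with samples of 85.5 to 133, and Pdcd1 followed at 93.0 ± 25.3 with samples of 71.2 to 129, so that these neighbours overlapped. Sh2d1a at 28.8 ± 5.91 and Tox2 at 26.6 ± 6.36 CPM per kilobase were also not separated by their spread. Cxcr5 at 8.14 ± 3.01 overlapped Cd200 at 6.20 ± 1.93, and Il6ra at 3.20 ± 2.10 overlapped Il21 at 2.59 ± 1.13 CPM per kilobase. Bcl6 was low, at 1.04 ± 0.236 CPM per kilobase. The order was much the same in the other groups: Icos and Pdcd1 led, and Bcl6 was the lowest member apart from Ascl2, in all 4. Tox2 stood above Sh2d1a in KO spleen, at 42.3 ± 8.39 against 33.4 ± 1.73 CPM per kilobase, although the sample ranges met. Ascl2, a factor that can start the programme, had at most 5 counts in any library and at most 1 in any WT library. It fell below the filter on low counts, which left 9 of 10 members in every edgeR fit with a filter. The fits with no low count filter and with DESeq2 included all 10 members, and Ascl2 was called in none of them.

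**Figure D1:**
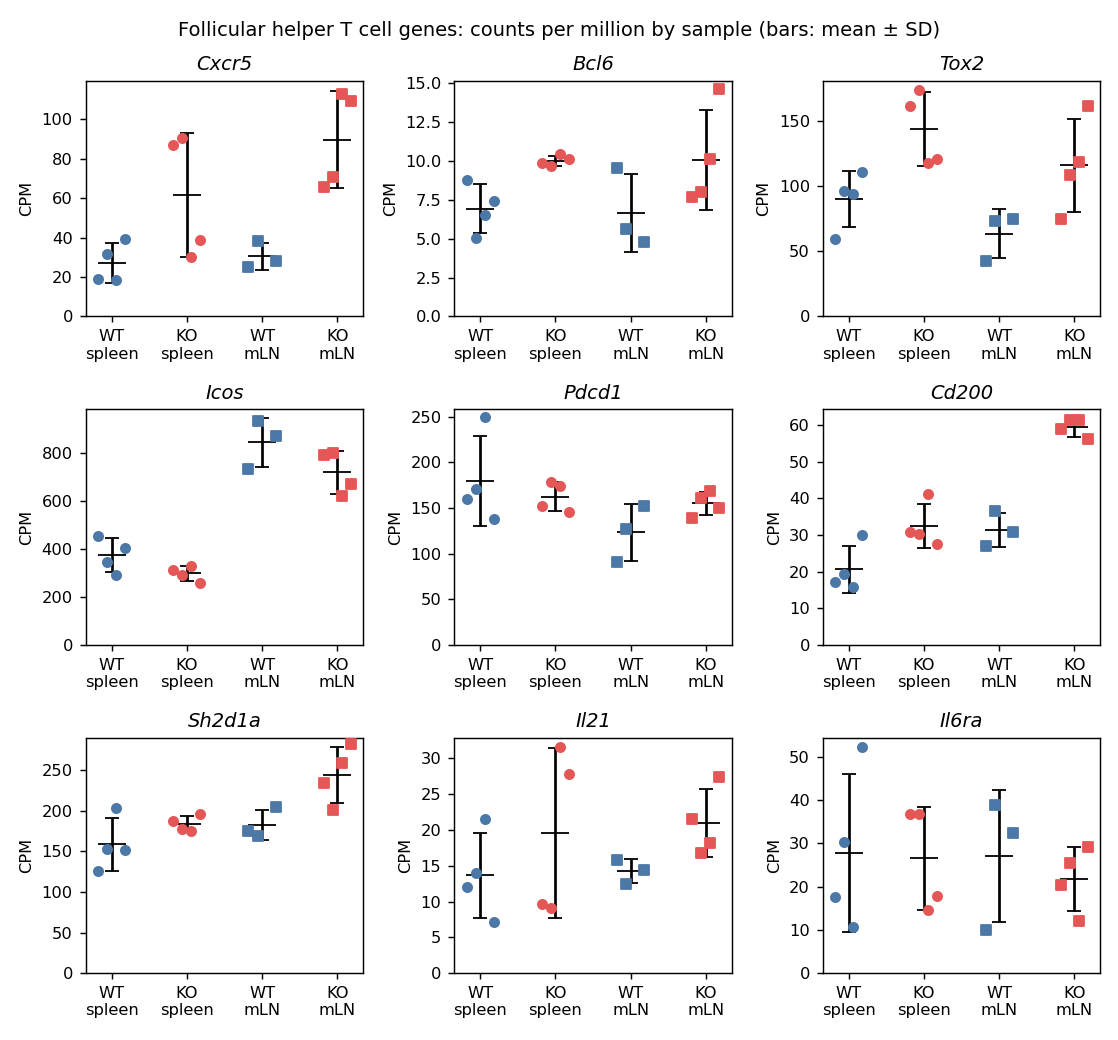
CPM of 9 of the 10 follicular helper genes, all but Ascl2, in each sample. There is 1 panel per gene, with points for samples and bars for the mean ± SD of each group. Each vertical axis starts at 0 and has its own scale. Cxcr5 and Cd200 points of KO mLN lie wholly above those of WT mLN, and Icos points of both mLN groups lie above both spleen groups.

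The first question was whether the loss of AMPKα1 goes with another level of these genes within an organ. In mLN cells, Cxcr5 and Cd200 were higher in KO than in WT and passed the test across all genes, and no member was called lower. In spleen no member passed, although Cxcr5, Tox2, Cd200 and Bcl6 had positive log2 fold changes of 0.54 to 1.19. By edgeR's quasi-likelihood test with Benjamini-Hochberg adjustment at 0.05, 2 of 9 members were called in mLN, where 0.641% of all 14359 genes were called in either direction and 0.348% as higher. In spleen 0 of 9 members were called, beside 1.3% of all 14254 genes. At an unadjusted p under 0.05 there were 5 members in spleen, beside 20.5% of all genes. DESeq2 called 2 members in spleen, Cd200 and Tox2, beside 2.23% of the 35239 genes with a read, and 3 in mLN, Cd200, Cxcr5 and Sh2d1a, beside 1.67% of 33658. The log2 fold change was positive for 7 of 9 members in mLN and 6 of 9 in spleen, beside 49.6% and 49.3% of all genes. The median over the 9 was 0.55 in mLN and 0.53 in spleen, with medians of all genes at -0.0038 and -0.0041. The members were listed with these differences in view, so an excess over all genes is a description and not evidence about the members.

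Cxcr5 (ENSMUSG00000047880, GRCm38 chr9:44511787-44561877, minus strand) had the largest fold change of the members. In mLN it stood at 25.1, 38.1 and 28.2 CPM in WT replicates 1, 2 and 4, and at 65.8, 70.9, 113 and 109 CPM in KO replicates 1 to 4. Every KO sample was above every WT sample. This was a log2 fold change of 1.55 (SE 0.22, adjusted p = 0.0291 by edgeR), and the gene ranked 10 of 14359 by p. In spleen it stood at 19.1, 31.7, 18.6 and 39.1 CPM in WT and at 87.1, 90.4, 30.4 and 38.6 CPM in KO cells. There, KO replicates 1 and 2 were far above the WT range, whereas KO replicates 3 and 4 lay inside it. KO over WT in spleen gave a log2 fold change of 1.19 (SE 0.36, adjusted p = 0.111 by edgeR). Its exons share 110 bases with those of Bcl9l.

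Cd200 (ENSMUSG00000022661, chr16:45382135-45409053, minus strand), a membrane protein that engages an inhibitory receptor on myeloid cells, stood at 27.1, 36.4 and 30.7 CPM in WT mLN and at 58.7, 61.2, 61.2 and 56.0 CPM in KO mLN. The groups did not overlap and the KO samples were close to each other. Their log2 fold change was 0.91 (SE 0.13, adjusted p = 0.0285 by edgeR), ranked 9 of 14359. In spleen Cd200 stood at 17.3, 19.2, 15.8 and 30.0 CPM in WT and at 30.7, 30.2, 41.0 and 27.6 CPM in KO, so that WT replicate 4 reached into the KO range. In spleen Cd200 had a log2 fold change of 0.67 (SE 0.20, adjusted p = 0.105 by edgeR), which was 0.90 with an adjusted p of 0.0358 by edgeR without WT replicate 4.

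With 3 or 4 samples a group, single libraries decided the calls in mLN. Both genes were still called when WT replicate 1 or KO replicate 1 was left out, and Cxcr5 alone without KO replicate 2. Neither was called without WT replicate 2, WT replicate 4, KO replicate 3 or KO replicate 4. Over the 7 omissions the log2 fold change of Cxcr5 stayed between 1.42 and 1.73 with adjusted p of 0.0224 to 0.128 by edgeR, and that of Cd200 between 0.82 and 1.02 with adjusted p of 0.0364 to 0.121 by edgeR.

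Tox2 and Bcl6, the transcription factors tested, had positive log2 fold changes in both organs that did not pass the test. Tox2 (ENSMUSG00000074607, chr2:163203125-163324170, plus strand), an HMG-box factor of the programme, stood at 59.9, 96.2, 94.4 and 111 CPM in WT spleen and at 162, 174, 118 and 121 CPM in KO spleen. These did not overlap, and the log2 fold change was 0.68 (SE 0.18, adjusted p = 0.0788 by edgeR). In mLN it stood at 42.3, 73.7 and 75.2 CPM in WT and at 75.1, 108, 119 and 162 CPM in KO, where the lowest KO sample met the highest WT sample. In mLN the log2 fold change was 0.86 (SE 0.25, adjusted p = 0.139 by edgeR).

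Bcl6 (ENSMUSG00000022508, chr16:23965052-23988852, minus strand) was measured on 47 to 164 reads per library. In spleen it stood at 8.79, 5.02, 6.54 and 7.42 CPM in WT and at 9.87, 9.65, 10.4 and 10.1 CPM in KO. All KO samples were above all WT samples by a narrow margin, and the log2 fold change was 0.54 (SE 0.18, adjusted p = 0.129 by edgeR). In mLN it stood at 9.52, 5.64 and 4.78 CPM in WT and at 7.66, 7.99, 10.1 and 14.6 CPM in KO. WT replicate 1 was above the lower KO samples, and the log2 fold change was 0.58 (SE 0.32, adjusted p = 0.423 by edgeR).

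In all, every KO sample exceeded every WT sample for 2 members in spleen, Bcl6 and Tox2, and for 3 members in mLN, Cxcr5, Cd200 and Il21; this held for 5.68% and 7.49% of all genes tested. No member had every KO sample below every WT sample, beside 6.31% of all genes in spleen and 6.94% in mLN. Since the list was drawn up with these differences in view, these counts are also a description.

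Il21 (ENSMUSG00000027718, chr3:37222759-37232636, minus strand) stood at 15.8, 12.5 and 14.4 CPM in WT mLN and at 21.5, 16.8, 18.1 and 27.3 CPM in KO mLN. The groups did not overlap, but the log2 fold change of 0.55 (SE 0.21) had an adjusted p of 0.237 by edgeR. In spleen it stood at 12.0, 14.0, 21.4 and 7.12 CPM in WT and at 9.66, 9.12, 31.5 and 27.7 CPM in KO. KO replicates 1 and 2 lay within the WT range and replicates 3 and 4 above it, and the log2 fold change was 0.53 (SE 0.45, adjusted p = 0.548 by edgeR). Il6ra (ENSMUSG00000027947, chr3:89864059-89913196, minus strand), the IL-6 binding chain, overlapped in both organs. It ranged from 10.8 to 52.1 CPM in WT and 14.6 to 36.9 CPM in KO spleen, and from 9.89 to 38.9 CPM in WT and 12.2 to 29.2 CPM in KO mLN. Its log2 fold change was -0.05 (SE 0.44) in spleen and -0.31 (SE 0.40) in mLN, and its sign depended on the fit and on single libraries.

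The other members, Sh2d1a, Pdcd1 and Icos, had log2 fold changes between -0.31 and 0.41. Sh2d1a (ENSMUSG00000005696, chrX:42502453-42529330, plus strand) stood at 175, 169 and 204 CPM in WT mLN and at 234, 201, 259 and 282 CPM in KO mLN, where KO replicate 2 alone met the WT range. It had a log2 fold change of 0.41 (SE 0.12, adjusted p = 0.152 by edgeR) in mLN and 0.22 (SE 0.13, adjusted p = 0.369 by edgeR) in spleen, where the ranges were 126 to 204 CPM in WT and 175 to 196 CPM in KO. Without WT spleen replicate 3 the value in spleen was 0.38 with an adjusted p of 0.0481 by edgeR. Pdcd1 (ENSMUSG00000026285, chr1:94038305-94052553, minus strand), which encodes the inhibitory receptor PD-1, ranged from 137 to 249.9 CPM in WT and 146 to 178 CPM in KO spleen, and from 91.0 to 152 CPM in WT and 139 to 169 CPM in KO mLN. Its log2 fold change was -0.14 (SE 0.17, adjusted p = 0.698 by edgeR) in spleen and 0.32 (SE 0.15, adjusted p = 0.331 by edgeR) in mLN. Icos (ENSMUSG00000026009, chr1:60977927-61000320, plus strand) had negative log2 fold changes in both organs, -0.31 (SE 0.13, adjusted p = 0.202 by edgeR) in spleen and -0.24 (SE 0.11, adjusted p = 0.338 by edgeR) in mLN. It ranged from 293 to 456 CPM in WT and 258 to 330.3 CPM in KO spleen, with overlap, and its mLN values, given with the organs below, overlapped as well.

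**Figure D2:**
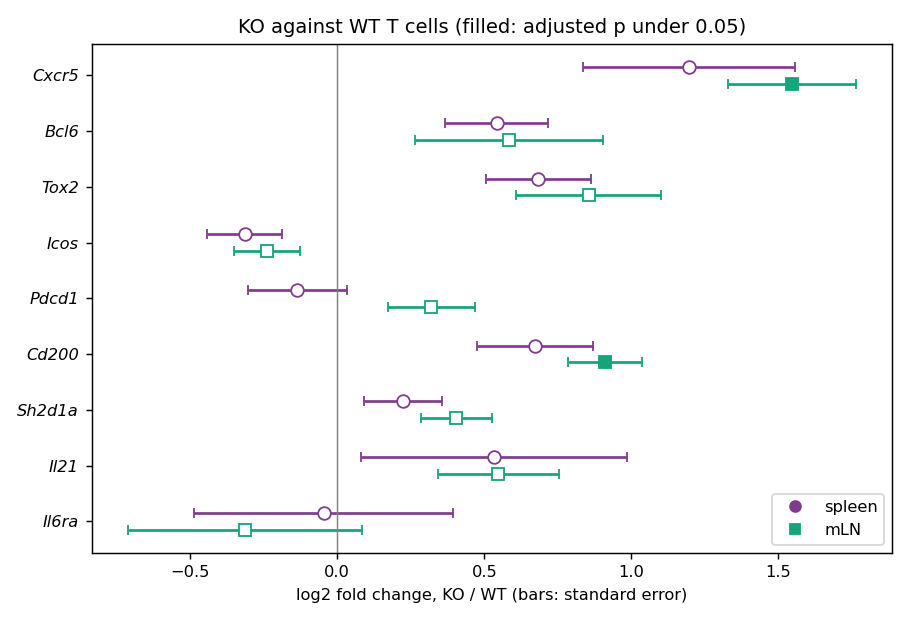
Log2 fold change of KO over WT for the 9 members tested, in spleen and in mLN, with bars for the standard error from the edgeR fit; a filled symbol marks an adjusted p under 0.05. Cxcr5 at 1.55 and Cd200 at 0.91 in mLN are the filled symbols, and Icos lies left of 0 in both organs.

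Markers of other cells moved with the genotype in places, and bulk RNA cannot tell fewer cells of a type apart from less RNA per cell. Of the 4 regulatory T cell markers, Il2ra and Ctla4, which are also in the list of further programme genes below, were called lower in KO spleen and 0 of 4 were called in mLN; the summed level was 250 to 468 CPM in WT and 153 to 280.2 CPM in KO spleen, and 359 to 866 CPM in WT and 201 to 421 CPM in KO mLN. Foxp3, their defining factor, ranged from 34.9 to 112 CPM in WT and 7.31 to 43.0 CPM in KO mLN. Of the 7 B cell markers, 4 passed the filter in mLN and Pax5 was called, with 0 to 2 reads in WT and 18 to 48 reads in KO libraries (adjusted p = 0.0372 by edgeR), while Ms4a1 stayed at 0. The summed B cell level, mostly Ighm, was 175 to 555 CPM in WT and 208 to 310 CPM in KO mLN, and these ranges overlapped. Of the 2 CD8 T cell markers none was called. Cd8a was at 0.299 to 8.50 CPM in WT and 16.4 to 23.0 CPM in KO mLN. Cd8b1 overlapped there, at 3.07 to 6.88 CPM in WT and 1.44 to 6.98 CPM in KO. Of the 6 handling and stress genes, 3 were called higher in KO spleen, and the summed level was 189 to 448 CPM in WT and 548 to 699.9 CPM in KO spleen, against 139 to 402 CPM in WT and 159 to 223 CPM in KO mLN. No gene of the T cell, macrophage or monocyte, dendritic cell, neutrophil, NK cell, erythroid, or stroma and endothelium lists was called in either organ, and plasma cell markers did not pass the filter. Among the uncalled genes, the macrophage complement genes C1qa, C1qb and C1qc did not overlap in spleen, with C1qb at 2.78 to 7.96 CPM in WT and 12.2 to 40.9 CPM in KO, and the summed macrophage or monocyte level was 122 to 224 CPM in WT and 143 to 419 CPM in KO spleen. Siglech, a plasmacytoid dendritic cell gene, had 1 to 16 reads in WT and 21 to 89 reads in KO mLN libraries. The summed erythroid level was 73.9 to 1488 CPM in WT and 32.4 to 80.7 CPM in KO spleen. The part of these shifts in the member values was not tested.

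The second question was how the organs differ. In both genotypes Icos had the largest log2 difference between organs of the 9 members, at 2.32 times the spleen level in WT and 2.42 times in KO mLN cells, and in KO cells Cd200 and Sh2d1a were also higher in mLN. In WT cells 1 of 9 members was called, Icos, beside 20.5% of all 14515 genes in either direction and 9.7% as higher. In KO cells 3 of 9 were called, all higher in mLN, beside 25.3% of all 14240 genes and 11.4% as higher. The mLN samples all lay above the spleen samples for Icos in WT and for Icos, Cd200 and Sh2d1a in KO, beside 13.3% of all genes in each genotype. Many genes differ between the organs, and these counts are not a result about the members. Markers of other cells also differed between the organs. In WT mLN 3 of 4 regulatory T cell markers, Ctla4, Il2ra and Foxp3, were called higher than in spleen, and in KO mLN 1 of 4, Ctla4. The neutrophil markers S100a8, S100a9 and Mpo were called lower in mLN in both genotypes, 3 of 4 markers, with a summed level of 125 to 457 CPM in spleen and 43.5 to 60.2 CPM in mLN in WT, and of 115 to 346 CPM in spleen and 16.4 to 36.0 CPM in mLN in KO. In KO mLN 5 of 8 macrophage or monocyte markers and 4 of 6 handling and stress genes were called lower, and in WT none of either list. Ighm was called higher in mLN in both genotypes, and Pax5 and Cd8a in KO, where Cd8a was at 0.179 to 1.60 CPM in spleen and Cd22, another B cell marker, was called lower. Of the 6 T cell markers, Cd3d was called higher in mLN in both genotypes, and in KO Lat and Trac were called higher and Cd3e lower, with a summed T cell level of 7002 to 7220 CPM in spleen and 7642 to 7842 CPM in mLN. The dendritic cell, NK cell, erythroid, and stroma and endothelium lists had at most 2 genes called in either genotype. In KO the summed handling and stress level was 548 to 699.9 CPM in spleen and 159 to 223 CPM in mLN. The part of these markers in the organ differences was not tested.

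Icos stood at 456, 343, 293 and 405 CPM in WT spleen and at 733, 932 and 868 CPM in WT mLN. KO samples stood at 312, 291, 330.3 and 258 CPM in spleen and at 793, 798, 619 and 670.1 CPM in mLN, so that mLN and spleen were well apart in both genotypes. On the log2 scale mLN over spleen was 1.21 (SE 0.15, adjusted p = 0.000797 by edgeR) in WT and 1.28 (SE 0.10, adjusted p = 1.01e-05 by edgeR) in KO. Cd200 was higher in KO mLN than in KO spleen by 0.87 on the log2 scale (SE 0.12, adjusted p = 0.000473 by edgeR), with no overlap, and by 0.65 in WT (SE 0.21, adjusted p = 0.0572 by edgeR). Sh2d1a was higher in KO mLN than in KO spleen by 0.41 on the log2 scale (SE 0.10, adjusted p = 0.0100 by edgeR), again with no overlap, and by 0.24 in WT (SE 0.16, adjusted p = 0.316 by edgeR). Cxcr5 was not called between organs, with log2 fold changes of 0.21 in WT (SE 0.26, adjusted p = 0.612 by edgeR) and 0.55 in KO (SE 0.32, adjusted p = 0.231 by edgeR). Tox2 and Pdcd1 had negative log2 fold changes in both genotypes, from -0.51 for Pdcd1 in WT to -0.07 for Pdcd1 in KO, and none passed. Bcl6, Il21 and Il6ra lay between -0.27 and 0.09. Further members crossed the threshold when 1 library was left out. Cd200 in WT had an adjusted p of 0.00517 by edgeR without WT spleen replicate 4, Sh2d1a in WT of 0.0395 by edgeR without WT spleen replicate 3, and Tox2 in KO, at -0.50, of 0.0498 by edgeR without KO mLN replicate 4.

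In WT cells, samples with the same replicate number in spleen and mLN deviated together in all 3 pairs. A second fit, run for every comparison whatever the pairing, used the replicate number as a block. With it, 4 of 9 members were called in WT, beside 30% of all genes, up from 20.5% without the block. Icos was then higher in mLN by 1.13 on the log2 scale (adjusted p = 0.000202 by edgeR), Cd200 by 0.58 (adjusted p = 0.0296 by edgeR), Sh2d1a by 0.40 (adjusted p = 0.00605 by edgeR), and Tox2 was at -0.43 (adjusted p = 0.00386 by edgeR). WT spleen replicate 3 has no partner in mLN and adds nothing to the blocked difference.

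**Figure D3:**
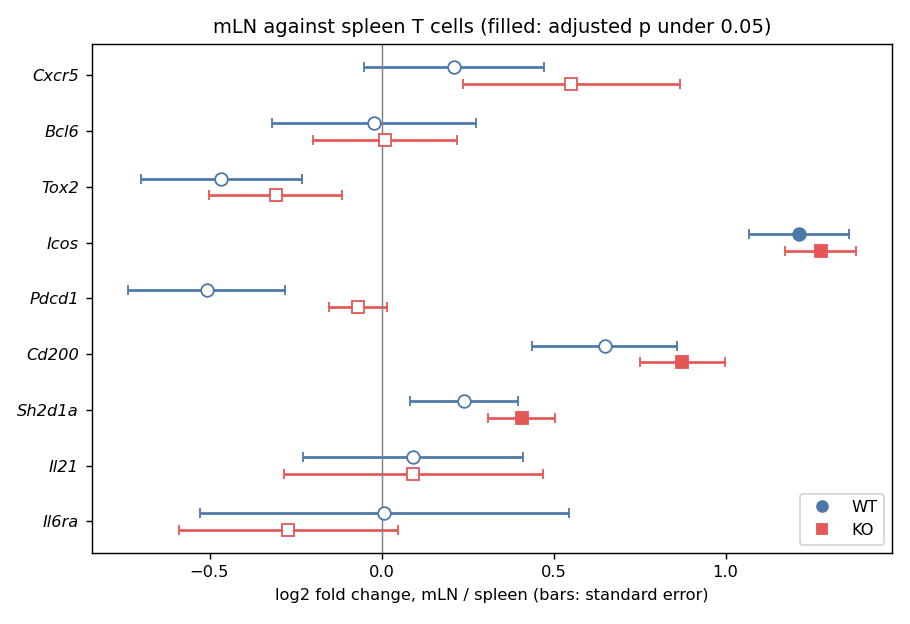
Log2 fold change of mLN over spleen for the 9 members tested, in WT and in KO cells, without the replicate block, with bars for the standard error from the edgeR fit; a filled symbol marks an adjusted p under 0.05. Icos is filled in both genotypes, at 1.21 and 1.28, and Cd200 and Sh2d1a are filled in KO.

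The genotype difference was not shown to differ between organs. In the fit over all 15 samples, 0 of 9 members and 0 of 15438 genes passed for the interaction by edgeR, 0% in all. At an unadjusted p under 0.05 there were 0 members and 652 genes, 4.22% of all tested, and DESeq2 called 2 genes. The log2 difference between the organs' genotype effects was 0.35 (SE 0.47) for Cxcr5, 0.24 (SE 0.25) for Cd200 and 0.45 (SE 0.25) for Pdcd1.

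Within groups, Cxcr5 and Il6ra had the same order of samples in WT spleen and WT mLN, and Il21 tended the other way. In WT spleen both receptors were highest in replicate 4, then 2, 1 and 3, and Il21 was lowest in replicate 4 and highest in 3. In WT mLN the receptors ran from replicate 2 over 4 down to 1, and Il21 ran from 1 over 4 down to 2. In KO spleen Cxcr5 and Il6ra were high in replicates 1 and 2, at 36.9 and 36.7 CPM for Il6ra, and low in replicates 3 and 4, at 14.6 and 17.8 CPM, whereas Il21 was low in 1 and 2. In KO mLN this order was not kept, since Cxcr5 was higher in replicates 3 and 4 and Il6ra was lowest in replicate 3. After subtraction of each group's mean on the log2 scale, Pearson's r over 15 samples was -0.78 for Cxcr5 and Il21 (Spearman's rho -0.79) and 0.68 for Cxcr5 and Il6ra (rho 0.69), among 36 pairs of members. Without the 2 samples farthest in Cxcr5 these were -0.66 and 0.63. Icos and Sh2d1a had r of -0.75 (rho -0.77), and -0.61 without the 2 samples farthest in Icos. Cxcr5 and Tox2 had 0.71 (rho 0.70), and 0.70 without the 2 samples farthest in Cxcr5. The pairs named have the largest r of either sign among the 36, so their values are large by selection. The samples include both organs, which may come from the same mice, and share depth and handling, so these are descriptions.

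**Figure D4:**
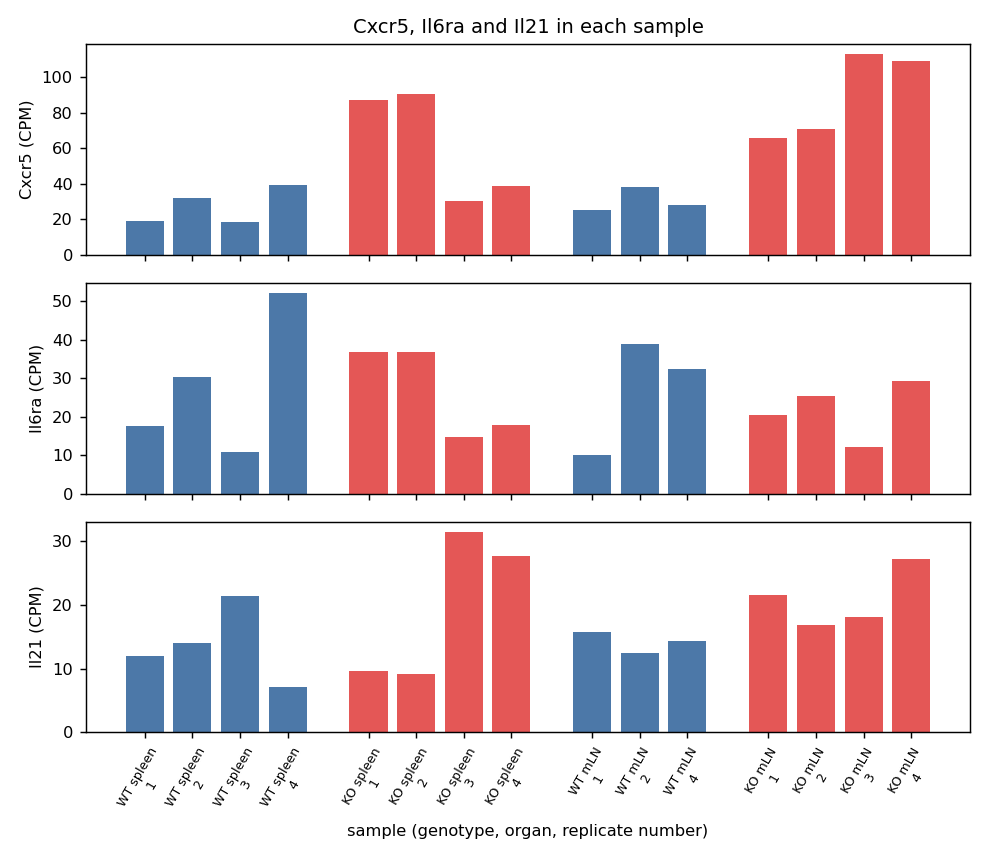
CPM of Cxcr5, Il6ra and Il21 in each of the 15 samples, 1 bar per sample, blue for WT and red for KO, with axes starting at 0. In KO spleen, replicates 1 and 2 have Cxcr5 at 87.1 and 90.4 CPM with Il21 at 9.66 and 9.12, and replicates 3 and 4 have Cxcr5 at 30.4 and 38.6 CPM with Il21 at 31.5 and 27.7.

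By the same measure, among 9267 genes with a mean of at least 10 CPM, those most like Cxcr5 were Rasgrp4 (r 0.92, rho 0.85), Acsl1 (r 0.90, rho 0.88) and Dennd2d (r 0.90, rho 0.88). Those most like Bcl6 were Pank3 (r 0.92, rho 0.88), Tmed5 (r 0.91, rho 0.83) and Ppp4c (r 0.90, rho 0.92). Without the 2 farthest samples the 3 values were 0.86 to 0.89 for Cxcr5 and 0.79 to 0.83 for Bcl6. These genes were picked for the largest r among 9267 genes over 15 samples, so their values are high by selection. They are a description, and shared regulation was not tested.

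Of 43 further genes of the follicular helper programme, 42 were tested, all but Cxcl13. In spleen 2 were higher in KO and 2 lower, beside 1.3% of all genes called in either direction. In mLN 1 was higher and 1 lower, beside 0.641% of all genes. The medians were -0.03 in spleen and 0.02 in mLN, near those of all genes, and no gene of the signals, factors in favour, or position and egress groups was called in either organ. Id3, an inhibitor of E proteins that restrains the programme, was higher in KO in both organs, with log2 fold changes of 1.36 in spleen (SE 0.23, adjusted p = 0.0370 by edgeR) and 1.23 in mLN (SE 0.22, adjusted p = 0.0414 by edgeR). Id2, its relative, was lower in KO mLN, at -0.53 (SE 0.09, adjusted p = 0.0392 by edgeR). In spleen Id2 was at -0.34 (SE 0.12, adjusted p = 0.158 by edgeR). Il2ra, the high-affinity IL-2 receptor chain, was lower in KO spleen at -1.16 (SE 0.16, adjusted p = 0.0123 by edgeR). Ctla4, the inhibitory receptor for CD80 and CD86, was also lower there, at -0.78 (SE 0.14, adjusted p = 0.0391 by edgeR). In mLN Il2ra was at -1.29 (SE 0.37, adjusted p = 0.139 by edgeR). Ctla4 in mLN was at -1.27 (SE 0.27, adjusted p = 0.0704 by edgeR), and neither was called. Cd40lg, the ligand through which T cells activate B cells, was higher in KO spleen at 0.50 (SE 0.09, adjusted p = 0.0444 by edgeR). In mLN Cd40lg was at 0.30 (SE 0.14, adjusted p = 0.319 by edgeR). None of the 42 was called for the interaction of genotype and organ. Apart from Il2ra, the genes called between genotypes had adjusted p-values of 0.0370 to 0.0444 by edgeR, near the limit. When each replicate was left out, all genes called numbered 12 to 324 in spleen and 4 to 117 in mLN. Whether the calls of these programme genes held in those fits is not reported here.

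**Figure D5:**
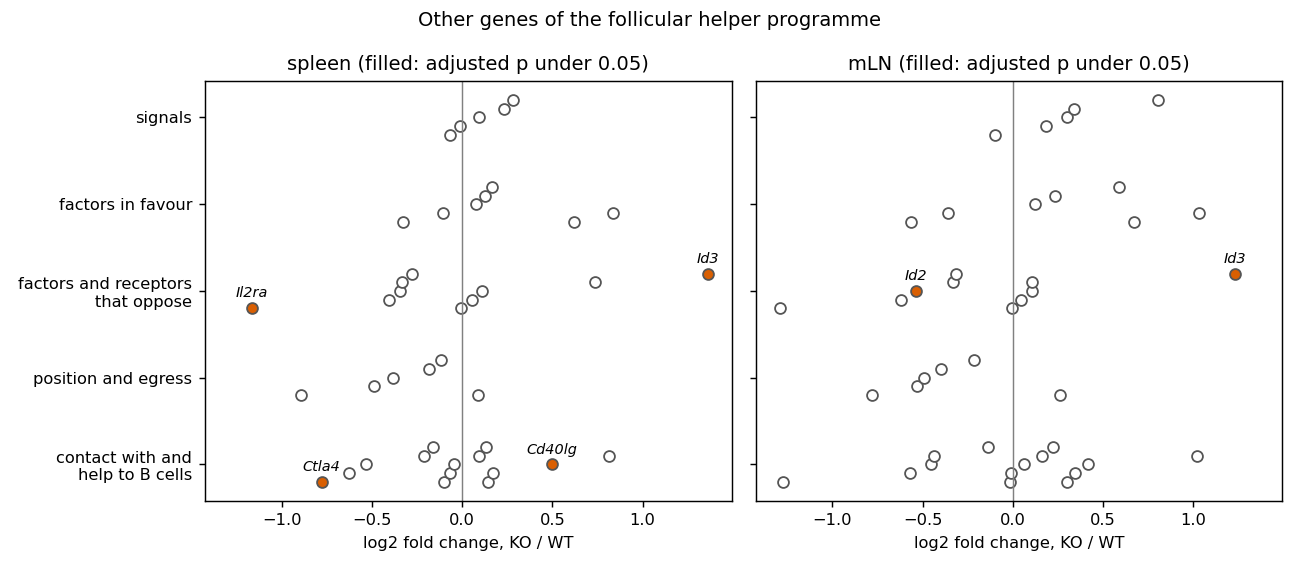
Log2 fold change of KO over WT for 42 further genes of the follicular helper programme, in rows by role, in spleen and mLN; filled points with names have an adjusted p under 0.05. Id3 lies at 1.36 and 1.23, Il2ra at -1.16 and Ctla4 at -0.78 in spleen.

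Between organs, 10 of the 42 were higher and 2 lower in WT mLN than in WT spleen, with a median of 0.28. Of all genes in WT, 20.5% were called in either direction and 9.7% as higher. In KO 17 were higher and 6 lower, with a median of 0.26, beside 25.3% of all genes and 11.4% as higher. The list was chosen with earlier results of these data known, so these counts are a description. The chemokine receptor Ccr7, which keeps T cells in the T cell zone, was higher in mLN by 1.77 on the log2 scale in WT (SE 0.45, adjusted p = 0.0234 by edgeR) and 1.47 in KO (SE 0.24, adjusted p = 0.00128 by edgeR). Ctla4 was higher by 1.57 in WT (SE 0.25, adjusted p = 0.00305 by edgeR) and 1.07 in KO (SE 0.19, adjusted p = 0.00210 by edgeR). In WT, Selplg and Tnfrsf4 were also higher in mLN, by 0.62 and 0.71, while S1pr2, which holds cells in follicles, was at -0.65 and Il6st, the signalling partner of IL-6 receptor, at -0.86. In KO, Slamf6 was higher in mLN by 1.18, Lef1 by 0.66 and Tigit by 0.61, and Maf, which drives Il21, was at -0.65. Genes were named by the smallest p in each genotype, and most were called in both. Selplg, Tnfrsf4 and S1pr2 were also called in KO, at 0.57, 0.66 and -0.49. Slamf6 and Lef1 were also called in WT, at 1.07 and 0.70. Tigit and Maf were not called in WT, at 0.45 and -0.18, nor was Il6st in KO, at -0.05.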

How the data were processed

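RNA of CD4+ T cells was sequenced in 15 samples with the NEBNext Single Cell/Low Input kit. Alignment (STAR 2.6.1a, GRCm38) and the counting of reads per gene were done by the authors. The submitters' notes also name RSEM, with no role. The deposited values are unnormalized read counts per gene, and the second column was used. Libraries held 30536968 to 35810615 reads, of which 9363940 to 11283439 fell on genes and 58.4 to 63.4% mapped uniquely to no gene; rows of unassigned reads were left out. Counting error limits members with few reads, such as Bcl6 and Ascl2. Whether counting used strand is not given in the sources used here, so reads of members whose exons overlap a gene on the other strand (Il21, Sh2d1a, Il6ra, Cxcr5 and Bcl6) are uncertain. Of the 55421 identifiers, 55240 matched GENCODE M21 symbols.

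Groups were taken from the labels. Each comparison was fitted to its own samples with edgeR 4.0.16 (R 4.3.3): genes were filtered with filterByExpr, TMM factors were applied, and quasi-likelihood p-values were adjusted by Benjamini-Hochberg over all genes tested and called under 0.05. The biological coefficient of variation was 15.3 to 21.6%. Alternatives were DESeq2 1.42.0, RLE or no normalization factors, other filters, a fit of all samples, a fold threshold, the replicate number as a block, and leaving out each replicate. The script was tested on simulated data. Same-numbered WT spleen and mLN samples correlated at 0.243 to 0.291 in their deviations from group means in 3 of 3 pairs and other pairs at -0.20 to 0.032; the labels give no mouse, so the pairing rests on this.

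The members, the 43 programme genes and the marker lists were chosen with earlier results of these data known. All members were named in each comparison; programme genes were named where called, up to 6 per comparison by p; the 3 genes most correlated with Bcl6 and with Cxcr5 were named. Correlations used log2(CPM + 0.5).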

Additional observations from a re-analysis of the deposited data

How the results depend on the processing

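The number of members called depended on the settings, with 9 tested, or 10 with no low count filter and with DESeq2. In spleen, 0 members were called for KO against WT, beside 185 of 14254 genes. With no low count filter 5 were called, beside 1422 of 35256 genes, and with DESeq2 2, beside 785 of 35239. When each replicate was left out, 0 to 1 were called, beside 12 to 324 genes. In mLN, 2 were called, beside 92 of 14359 genes, and 1 with an absolute log2 fold change above 1 in addition, beside 47. With no filter 4 were called, beside 913 of 33681 genes, and with DESeq2 3, beside 561 of 33658. With the replicate block 0 were called, beside 1 gene. When each replicate was left out, 0 to 2 were called, beside 4 to 117 genes. For mLN against spleen in WT, 1 was called, beside 2980 of 14515 genes. With no filter 4 were called, beside 3717 of 34385 genes, and with DESeq2 2, beside 3243 of 34374. With all 15 samples in one fit 2 were called, beside 3494 of 15438 genes, and with the replicate block 4, beside 4351 of 14515. When each replicate was left out, 1 to 2 were called, beside 1816 to 2780 genes. In KO, 3 were called, beside 3602 of 14240 genes, and 1 above the fold threshold, beside 763. With no filter 5 were called, beside 4065 of 34867 genes. When each replicate was left out, 3 to 4 were called, beside 2631 to 3669 genes. No member was called for the interaction under any setting run. All genes called numbered 185 in spleen (17 to 1422 over the alternatives, 12 to 324 without a replicate), 92 in mLN (1 to 913, and 4 to 117), 2980 between organs in WT (723 to 4351, and 1816 to 2780) and 3602 in KO (763 to 4065, and 2631 to 3669). With no filter 33681 to 35256 genes entered the fits of a pair of groups. For the other differences the cause was not tested.

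WT and KO samples with the same number did not deviate together (correlations of -0.21 to 0.15 in spleen and -0.053 to 0.0034 in mLN), so the block for those comparisons shares only a number; with it, 17 genes were called in spleen and 1 in mLN. In KO, same-numbered spleen and mLN samples correlated at 0.026 to 0.26, not every sample correlated best with its own number, and the block called 3814 genes and the same number of members, 3.

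Of 756 values of single members under alternatives, 47 changed sign. With the replicate block Il6ra was at 0.070 in spleen and 0.055 in mLN for KO against WT, -0.30 between organs in WT and 0.083 for the interaction, Bcl6 at -0.028 between organs in KO, and Il21 at -0.17 for the interaction. Il6ra between organs in WT was at -0.036 with library size only and at -0.014 with at least 10 counts in every sample. With no filter Bcl6 between organs in KO was at -0.0052 and Il21 for the interaction at -0.0012. Leaving out each replicate gave, for KO against WT, ranges of -0.25 to 0.083 for Pdcd1 and -0.31 to 0.45 for Il6ra in spleen and -0.71 to 0.032 for Il6ra in mLN. Between organs it gave -0.39 to 0.17 for Bcl6, -0.13 to 0.42 for Il21 and -0.33 to 0.51 for Il6ra in WT, and -0.21 to 0.12 for Bcl6 and -0.15 to 0.42 for Il21 in KO. For the interaction it gave -0.19 to 0.40 for Bcl6, -0.038 to 0.17 for Icos, -0.31 to 0.34 for Il21, -0.059 to 0.32 for Tox2 and -0.77 to 0.067 for Il6ra.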
